A study of Mus musculus with 10 samples.

Results

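Antioxidant defence was followed through 10 genes (Nqo1, Hmox1, Gclc, Gclm, Txnrd1, Srxn1, Sod1, Sod2, Cat and Prdx1), chosen by name and all present among the 20813 genes of the deposited expression table. All 10 also passed the filter on low values, which kept 15276 genes with a mean of at least 10 over the samples. The samples were spleens of C57BL/6 mice irradiated below the lethal dose and injected with a T-ALL (acute leukemia of the T-cell lineage) that carried a conditional Sirt1 allele. The 5 samples labelled Sirt1-deleted came from mice given tamoxifen (3 mg per animal, in oil, into the peritoneum), and the 5 labelled control came from mice given the oil alone. Both groups thus carried the conditional leukemia and had been irradiated. Treatment and genotype label divide the samples identically, so an effect of tamoxifen itself and of Sirt1 loss cannot be told apart. The Cre driver, the number of primary leukemias, the ages of the mice and whether the samples come from separate animals of separate leukemias are not given in the sources used here, so p-values measure only the spread between these samples.

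The main defence against reactive oxygen works in layers. Superoxide dismutases turn superoxide into hydrogen peroxide, and catalase, peroxiredoxins and glutathione peroxidases then remove the peroxide, with thioredoxin and glutathione as electron donors. The transcription factor NRF2 (Nfe2l2), which KEAP1 holds at a low level in unstressed cells, drives many of these genes through a short promoter sequence, the antioxidant response element. SIRT1, a NAD-dependent deacetylase, is known to act on FOXO factors, which can drive Sod2 and Cat. In the spleen, Hmox1 is also high in the macrophages that recycle iron from old red cells.

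The deposited counts, normalized by DESeq factors, summed to between 33700000 and 34500000 per sample, and the spacing of low values gave an approximate depth of 31400000 to 38500000 reads. Sirt1 itself averaged 1810 ± 62.5 normalized counts in controls and 1873 ± 146 in the tamoxifen group (SD, n = 5 each), with overlapping values and a limma adjusted p of 0.568. The deleted part of the gene is not given in the sources used here, so a value over the whole gene does not check the label, and these samples are named by it throughout. T lineage markers were detected in every sample, with a summed value of 251847 to 288802. Fewer cells of a type and less RNA per cell cannot be told apart in such bulk samples.

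For Hmox1 and Gclc no promoter window was matched by symbol, so neither was searched for motifs. Promoter windows of 250 bases before the start site were read from RefSeq (GRCm38.p6) for the 8 of 10 genes so matched. Those of Txnrd1, Prdx1, Srxn1 and Cat are shown because they carry, between them, the motif through which NRF2 acts, its AP-1 relative, and a catalase promoter without either. Capitals mark the antioxidant response element core TGACNNNGC (N, any base; either strand) in Txnrd1 and Prdx1, the AP-1 site TGACTCA (either strand) in Srxn1, and the CCAAT box (either strand) in Cat. The windows are chr10:82858956-82859205 on the plus strand for Txnrd1, chr4:116685349-116685598 on the plus strand for Prdx1, chr2:152105274-152105523 on the plus strand for Srxn1 and chr2:103485154-103485403 on the minus strand for Cat.
Txnrd1: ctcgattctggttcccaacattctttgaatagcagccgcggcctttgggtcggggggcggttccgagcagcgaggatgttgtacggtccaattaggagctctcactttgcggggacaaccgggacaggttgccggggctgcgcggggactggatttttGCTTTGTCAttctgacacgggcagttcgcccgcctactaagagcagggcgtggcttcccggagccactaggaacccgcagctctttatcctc
Prdx1: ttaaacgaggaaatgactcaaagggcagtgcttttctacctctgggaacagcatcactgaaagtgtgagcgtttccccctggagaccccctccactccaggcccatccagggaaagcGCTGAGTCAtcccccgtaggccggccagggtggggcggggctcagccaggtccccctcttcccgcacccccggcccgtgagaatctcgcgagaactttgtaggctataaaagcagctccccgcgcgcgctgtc
Srxn1: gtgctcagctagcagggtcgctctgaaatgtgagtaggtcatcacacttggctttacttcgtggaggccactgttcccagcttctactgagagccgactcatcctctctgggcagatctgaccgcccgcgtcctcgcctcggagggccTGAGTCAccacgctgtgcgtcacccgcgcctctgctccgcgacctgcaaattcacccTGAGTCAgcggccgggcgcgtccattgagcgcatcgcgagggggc
Cat: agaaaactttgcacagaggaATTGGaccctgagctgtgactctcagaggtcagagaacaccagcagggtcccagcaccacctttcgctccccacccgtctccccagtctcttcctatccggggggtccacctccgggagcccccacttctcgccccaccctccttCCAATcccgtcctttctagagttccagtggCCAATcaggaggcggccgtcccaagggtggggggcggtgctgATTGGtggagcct
The antioxidant response element core was found in 4 of the 8 genes, namely Txnrd1, Prdx1, Gclm and Sod1, against 11.5% of all genes with such windows. In Txnrd1, whose RefSeq models start at 3 sites, it stood at bases -92 to -84 from the middle start and in neither of the other windows. The core in Prdx1, at -133 to -125, contains an AP-1 site at -131 to -125, so these are not separate matches. Prdx1 holds a further AP-1 site at -237 to -231, left in lower case above. AP-1 sites were found in 5.16% of all genes, and Srxn1 had 2 of them, at -102 to -96 and -45 to -39. Cat had 4 CCAAT boxes, a sequence found in 37.5% of all genes. The FOXO motif GTAAACA (either strand) was in none of the windows of the 8 genes, beside 3.54% of all genes. A match describes the letters only, and no match says nothing of sites outside the window or of variant forms of a motif, which were not searched.

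Of the 10 genes, 3 differed between the groups (limma on log2(value + 1), Benjamini-Hochberg adjusted p under 0.05 over all tested genes), which was 30% beside 36.1% of all 15276 tested genes. Hmox1 rose, and Cat and Txnrd1 fell. The remaining 7 did not pass the test, and 5 of the 10 had an unadjusted p under 0.05, beside 46.3% of all genes. In 2 of the 10, Hmox1 and Cat, the groups did not overlap, beside 24.0% of all genes. Among all tested genes 16.8% were called higher and 19.4% lower, so the share of antioxidant genes called was close to the background in these samples. After upper-quartile rescaling the higher share of all calls moved from 46.4% to 58.2%, and Hmox1 and Cat kept their calls while Txnrd1 lost its own (adjusted p = 0.0737). The median log2 difference (labelled Sirt1-deleted minus control) of the 10 genes was -0.11, beside -0.00014 for all tested genes, and 7 of the 10 differences were below 0.

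**Figure D1:**
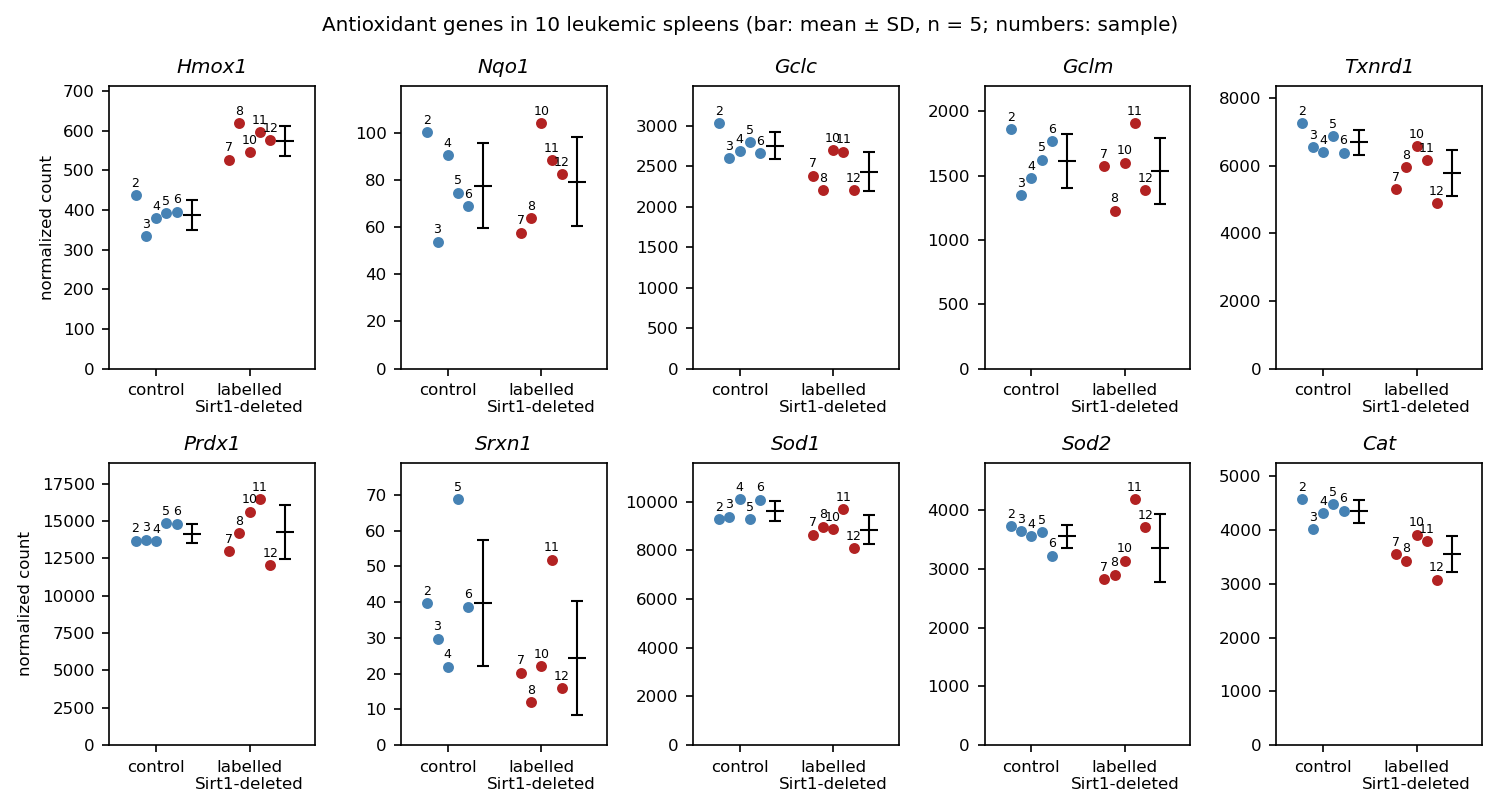
DESeq-normalized counts (vertical axis, starting at 0) of the 10 antioxidant genes in each sample, with controls in blue, labelled Sirt1-deleted samples in red, sample numbers beside the points, and the mean and SD (n = 5) as black bars. Hmox1 in the labelled Sirt1-deleted samples sits above all controls, at 527 to 620 against 333 to 437, and Cat sits below them, at 3076 to 3919 against 4019 to 4573.

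Hmox1 encodes the inducible haem oxygenase, which opens the haem ring and releases iron and biliverdin. It lies on the plus strand of chromosome 8, at 75093618 to 75100593 (RefSeq, GRCm38.p6, the build called mm10 in the submitters' processing notes). Normalized counts were 527, 620, 545, 597 and 576 in the labelled Sirt1-deleted samples 7, 8, 10, 11 and 12, and 437, 333, 379, 392 and 396 in control samples 2, 3, 4, 5 and 6. Every labelled Sirt1-deleted sample was above every control, as was the case for 11.1% of all tested genes. The means were 573 ± 37.6 and 387 ± 37.4 (SD, n = 5 each), a ratio of 1.48 and a log2 difference of 0.57 (SE 0.08, 95% interval 0.38 to 0.75, limma adjusted p = 7.66e-04). An exact two-sided permutation test gave p = 0.00794, the smallest this design allows.

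Markers of other spleen cells moved with Hmox1. Of 15 tested macrophage and monocyte markers 12 rose and 0 fell, and their summed value was 7103 to 13014 in the labelled Sirt1-deleted samples against 3423 to 3884 in controls. Neutrophil markers rose for 14 of 15, with sums of 29087 to 100260 against 9200 to 12698. No tested marker of either list was at 0, while Vsig4, also in the macrophage list, was not analysed here. Of the other cell type lists, T lineage markers were called higher for 3 and lower for 4 of 16, B cell markers higher for 1 of 10, stromal and endothelial markers lower for 2 of 8, and erythroid, natural killer and megakaryocyte markers for 0 of 12, 5 and 5. Beside these counts, 16.8% of all tested genes were called higher and 19.4% lower. Spic, the factor that specifies iron-recycling splenic macrophages, rose from 117 ± 17.3 to 247 ± 87.7 (log2 difference 1.01 by limma, adjusted p = 0.00452). Cd163, the macrophage receptor for haemoglobin, measured 96.0 ± 24.2 against 63.9 ± 16.7 and did not pass (limma adjusted p = 0.0505). Within the labelled Sirt1-deleted group sample 8 was highest in both sums and in Hmox1. Sample 7, next highest in both sums, had the lowest Hmox1, though its macrophage sum was close to that of sample 11 (8477 and 8307). Lyz2, among the 12 that rose, went from 880 ± 114 to 3609 ± 1606. At 2133 to 6255 in the labelled Sirt1-deleted samples, it made up a large part of their macrophage sum. The part of macrophages and neutrophils in the Hmox1 result was not tested.

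**Figure D2:**
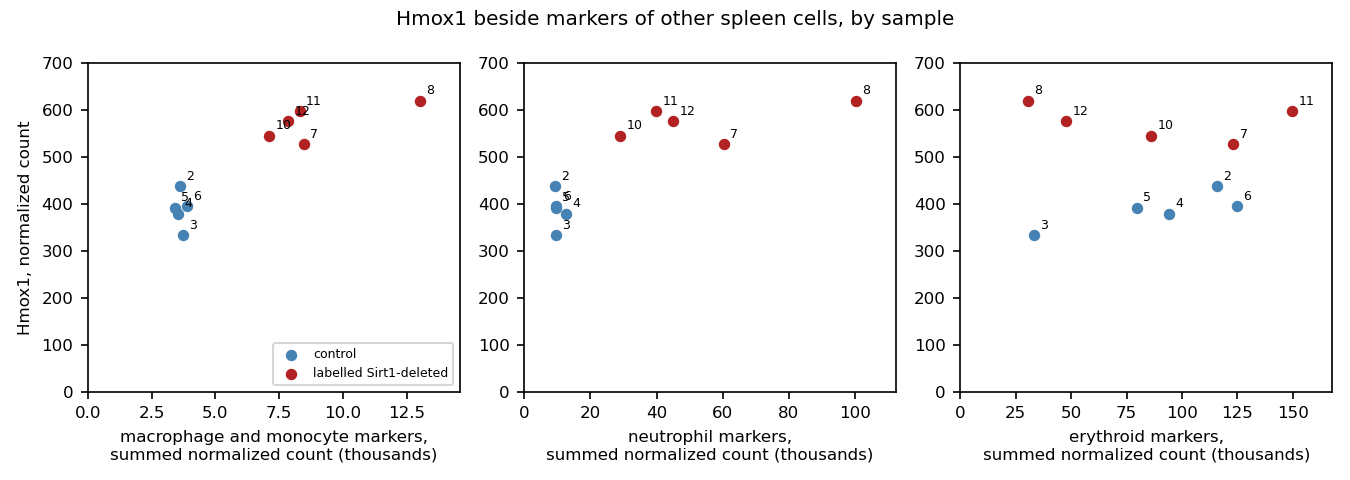
Normalized count of Hmox1 (vertical axis) against the summed normalized counts, in units of 1000, of macrophage and monocyte, neutrophil, and erythroid markers (horizontal axes), with a point per sample, numbered, controls in blue and labelled Sirt1-deleted samples in red. The red points lie apart from the blue on the first 2 horizontal axes, whereas the erythroid sums overlap, at 30284 to 149700 against 33234 to 124871. The suspensions had undergone lysis of red cells, so the erythroid sums do not measure the whole spleen.

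Haem and iron handling genes, the setting in which Hmox1 works, were called higher for 4 of 18 and lower for 1 (27.8% called, beside 36.1% of all tested genes), with a median log2 difference of 0.09. Ferroportin (Slc40a1), the iron exporter, went up from 687 ± 127 to 986 ± 97.3 (a log2 difference of 0.53, limma adjusted p = 0.00489). Haptoglobin (Hp), which binds free haemoglobin and is also made by neutrophils, rose from 188 ± 40.4 to 1064 ± 487 (log2 difference 2.41 by limma, adjusted p = 1.09e-04). The ferritin light chain gene Ftl1 rose by 0.29 on the log2 scale (limma adjusted p = 0.00702), whereas the heavy chain gene Fth1 measured 12116 ± 2646 against 12126 ± 867 (adjusted p = 0.894). Ferrochelatase (Fech), the last enzyme of haem synthesis, had a log2 difference of -0.50 (limma adjusted p = 0.038), a call lost under 5 of 10 processing alternatives. Biliverdin reductases, which act next after HMOX1, did not pass: Blvra measured 1196 ± 122 against 1190 ± 68.9 and Blvrb 1043 ± 303 against 930 ± 192 (SD, n = 5 each).

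Nqo1, on the minus strand of chromosome 8 (107388225 to 107403205), encodes a quinone reductase that is among the classic NRF2 targets. Its counts were low, at 57.6, 63.6, 104, 88.5 and 82.5 in the labelled Sirt1-deleted samples 7, 8, 10, 11 and 12, and 100.2, 53.8, 90.5, 74.6 and 68.9 in controls 2 to 6. The groups overlapped almost entirely, with means of 79.3 ± 18.9 and 77.6 ± 18.2 (SD, n = 5 each). Its log2 difference of 0.03 (SE 0.21, 95% interval -0.42 to 0.48, limma adjusted p = 0.929) leaves room for a change of moderate size in either direction.

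Glutathione is made by glutamate-cysteine ligase, of which Gclc encodes the catalytic and Gclm the modifier subunit. For Gclc (chromosome 9, 77754535 to 77794489, plus strand) the labelled Sirt1-deleted samples 7, 8, 10, 11 and 12 held 2384, 2202, 2703, 2679 and 2205 normalized counts. Controls 2 to 6 held 3038, 2600, 2689, 2802 and 2659. Of the labelled Sirt1-deleted samples 3 were below all controls, and samples 10 and 11 were within the control range. The log2 difference of Gclc was -0.18 (SE 0.07, 95% interval -0.34 to -0.03), which did not pass after adjustment (limma adjusted p = 0.0613). Without sample 10 it was -0.22 and passed (limma adjusted p = 0.0231), as it did without sample 11 (limma adjusted p = 0.0330). Gclm (chromosome 3, 122245487 to 122267215, plus strand) ranged from 1227 to 1910 in the labelled Sirt1-deleted samples and from 1348 to 1860 in controls, with a log2 difference of -0.08 (SE 0.12, limma adjusted p = 0.640). A transcribed pseudogene, Gm6061, overlaps Gclm on the same strand, with a mean of 98.4 normalized counts. Within each sample, where scaling between samples cancels, the ratio of Gclc to Gclm counts was 1.60 ± 0.151 and 1.72 ± 0.163 (SD, n = 5 each), and the groups overlapped.

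Among 28 tested genes of glutathione use and turnover, 9 were called higher and 0 lower, with a median log2 difference of 0.08. That was 32.1% called, beside 36.1% of all tested genes called in either direction and 16.8% called higher. Mgst1 and Mgst2 encode membrane-bound glutathione transferases. Mgst1 rose from 36.0 ± 5.89 to 209 ± 92.4 (log2 difference 2.41 by limma, adjusted p = 1.57e-04), and Mgst2 rose by 0.85 (limma adjusted p = 0.00698). The neutrophil and macrophage marker sums given above were higher in the same samples. Within the labelled Sirt1-deleted group Mgst1 was highest in sample 10 (348), which had the lowest of both sums. Mgst2 was highest in sample 8 (331), which had the highest of both. The part of these cells in the rises was not tested. Gpx4, which repairs lipid peroxides, rose from 3825 ± 186 to 5343 ± 1371 (log2 difference 0.45 by limma, adjusted p = 0.0199), and without labelled Sirt1-deleted sample 7 its difference was 0.39 and did not pass (limma adjusted p = 0.0519). Gss, which completes glutathione, and Gsr, which reduces it back after use, measured 1150 ± 114 against 1174 ± 22.3 and 4968 ± 482 against 4708 ± 317, and neither passed (limma adjusted p = 0.712 and 0.427).

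Thioredoxin reductase in the cytosol, encoded by Txnrd1, passes electrons from NADPH to thioredoxin. The gene (chromosome 10, 82833951 to 82897724, plus strand) is the one shown above with the antioxidant response element core at its middle start, and the deposited value is 1 per gene. Normalized counts were 5300, 5951, 6578, 6169 and 4883 in the labelled Sirt1-deleted samples 7, 8, 10, 11 and 12, and 7265, 6548, 6393, 6865 and 6378 in controls 2 to 6. Sample 10 fell inside the control range and the other 4 were below every control. The means were 5776 ± 680 and 6690 ± 376 (SD, n = 5 each), with a log2 difference of -0.22 (SE 0.08, 95% interval -0.38 to -0.05, limma adjusted p = 0.0397). The Txnrd1 call held in 6 of 10 processing alternatives, over which limma and rank-sum adjusted p ranged up to 0.124. It was lost without control sample 2, 3, 4 or 5 and without labelled Sirt1-deleted sample 7, 8 or 12 (limma adjusted p from 0.0504 to 0.0997). A further gene, Eid3, lies on the same strand within the Txnrd1 locus and averaged 11.7 normalized counts.

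Prdx1 (chromosome 4, 116685599 to 116700000, plus strand) encodes an abundant cytosolic peroxiredoxin that thioredoxin recharges. Its counts in the labelled Sirt1-deleted samples 7, 8, 10, 11 and 12 were 12985, 14177, 15615, 16445 and 12056, and in controls 2 to 6 they were 13677, 13741, 13639, 14856 and 14816. Samples 10 and 11 exceeded all controls, and 7 and 12 were below all of them. The means of 14256 ± 1810 and 14146 ± 631 (SD, n = 5 each) were close, and the log2 difference was 0.00 (0.0029, SE 0.08, 95% interval -0.16 to 0.17, limma adjusted p = 0.982). Gm21399, a processed pseudogene 98.3% identical to Prdx1 over 597 bases, averaged under 5 normalized counts in each group.

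Srxn1 encodes sulfiredoxin, which rescues peroxiredoxins that peroxide has over-oxidized. The gene (chromosome 2, 152105524 to 152111376, plus strand) was the lowest of the 10 in these spleens. It measured 20.2, 11.9, 22.0, 51.9 and 15.9 normalized counts in the labelled Sirt1-deleted samples 7, 8, 10, 11 and 12, and 39.6, 29.7, 21.9, 68.7 and 38.7 in controls 2 to 6. Of the labelled Sirt1-deleted samples 3 were below all controls and sample 11 was above 4 of the 5. With coefficients of variation of 65.0% and 44.7%, the log2 difference of -0.76 (SE 0.38, 95% interval -1.59 to 0.07) did not pass (limma adjusted p = 0.138). Without sample 11 it was -1.07 (limma adjusted p = 0.0243), so that sample decides the call.

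Further members of the thioredoxin, peroxiredoxin and methionine sulfoxide systems were called higher for 5 of 18 and lower for 1, with a median log2 difference of 0.07. That was 33.3% called, beside 36.1% of all tested genes called in either direction, 16.8% higher and 19.4% lower. Prdx4, the peroxiredoxin of the endoplasmic reticulum, fell from 1468 ± 88.7 to 1108 ± 81.0 (log2 difference -0.41, limma adjusted p = 0.00108), with no overlap between the groups. Prdx5 and Prdx2 rose by 0.47 and 0.26 (limma adjusted p = 0.00268 and 0.0456), the latter with a call lost under 4 of 10 alternatives. Prdx3 of mitochondria measured 3239 ± 316 against 3400 ± 147 (limma adjusted p = 0.393). Sesn2, a stress-induced regulator of mTORC signalling and a known p53 target, rose from 437 ± 38.5 to 834 ± 130 (log2 difference 0.92 by limma, adjusted p = 2.71e-04). Msrb1, which repairs oxidized methionine, rose by 0.54 (limma adjusted p = 0.00283). Thioredoxin (Txn1) measured 15130 ± 374 against 14225 ± 952 and its inhibitor Txnip 3942 ± 1455 against 3703 ± 426, and neither passed (limma adjusted p = 0.167 and 0.969).

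Sod1 encodes the copper-zinc superoxide dismutase of the cytosol. The gene (chromosome 16, 90220762 to 90226333, plus strand) held 8642, 8971, 8863, 9699 and 8081 normalized counts in the labelled Sirt1-deleted samples 7, 8, 10, 11 and 12, and 9277, 9384, 10095, 9282 and 10076 in controls 2 to 6. All labelled Sirt1-deleted samples except number 11 were below every control. The log2 difference of Sod1 was -0.12 (SE 0.05, 95% interval -0.24 to -0.01), which did not pass after adjustment (limma adjusted p = 0.0878), and without sample 11 it was -0.16 and passed (limma adjusted p = 0.0309). Scaf4 overlaps Sod1 on the opposite strand with a mean of 4302, and whether the quantification used strand is not given in the sources used here. A processed pseudogene, Gm8566, which is 97.8% identical over 465 bases, stayed under 5 normalized counts on average. Ccs, the chaperone that loads SOD1 with copper, measured 728 ± 92.8 against 617 ± 68.9 (limma adjusted p = 0.0886), and the copper importer Slc31a1 fell by 0.32 on the log2 scale (limma adjusted p = 0.011).

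Sod2 (chromosome 17, 13007839 to 13018119, plus strand) encodes the manganese superoxide dismutase of mitochondria. The labelled Sirt1-deleted samples 7, 8, 10, 11 and 12 held 2819, 2902, 3139, 4183 and 3712 normalized counts, and controls 2 to 6 held 3731, 3646, 3554, 3621 and 3223. The labelled Sirt1-deleted samples spread on both sides of the controls, with 3 below all of them and 1 above. Their SD of 582 compared with 196 in controls, and the log2 difference was -0.10 (SE 0.10, 95% interval -0.31 to 0.11, limma adjusted p = 0.449). In the ratio of Sod2 to Sod1 counts the groups also overlapped, at 0.379 ± 0.0626 and 0.371 ± 0.0340 (SD, n = 5 each). Of 6 tested genes for superoxide and copper handling 3 were called lower and 0 higher. That was 50% called, beside 36.1% of all tested genes called in either direction and 19.4% called lower. Ucp2, an inner mitochondrial membrane carrier known to lower superoxide output, fell from 26264 ± 1867 to 19309 ± 2488 (log2 difference -0.45, limma adjusted p = 0.00242). Oxr1, an oxidation resistance gene, fell by 0.56 (limma adjusted p = 0.00173).

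Cat encodes catalase, the peroxisomal enzyme that splits hydrogen peroxide into water and oxygen. It lies on the minus strand of chromosome 2, at 103453904 to 103485153, behind the promoter with 4 CCAAT boxes shown above. Normalized counts were 3550, 3432, 3919, 3792 and 3076 in the labelled Sirt1-deleted samples 7, 8, 10, 11 and 12, and 4573, 4019, 4310, 4479 and 4366 in controls 2 to 6. No labelled Sirt1-deleted sample reached the lowest control, a separation in this direction that 12.9% of all tested genes had. The means were 3554 ± 329 and 4349 ± 211 (SD, n = 5 each), so the labelled Sirt1-deleted group stood at 81.7% of control. Its log2 difference was -0.30 (SE 0.07, 95% interval -0.44 to -0.15, limma adjusted p = 0.00499, exact two-sided permutation p = 0.00794).

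Peroxisome genes, the compartment of catalase, were called lower for 8 of 25 and higher for 2, with a median log2 difference of -0.18. That was 40% called, beside 36.1% of all tested genes called in either direction, 19.4% lower and 16.8% higher. Hsd17b4, a bifunctional enzyme of peroxisomal fatty acid oxidation, fell from 2813 ± 66.9 to 2241 ± 262 (log2 difference -0.34, limma adjusted p = 0.00457). Ehhadh, another bifunctional enzyme of that pathway, fell by 0.41 (limma adjusted p = 0.0384, a call lost under 4 of 10 alternatives). Pex6, whose product helps recycle the import receptor, rose by 0.19 (limma adjusted p = 0.0285), a call held in 7 of 10 alternatives and 5 of 10 fits that left out a sample. The number of peroxisome genes called lower was 3 to 9 across processing alternatives.

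**Figure D3:**
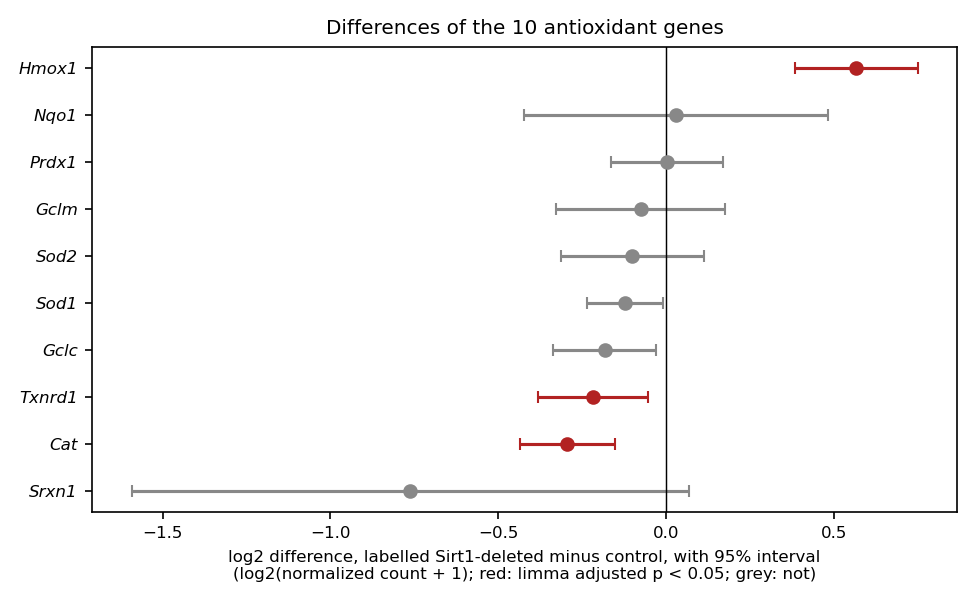
Log2 difference of each antioxidant gene (horizontal axis, labelled Sirt1-deleted minus control, on log2(normalized count + 1)), with its 95% interval as a bar, red where the limma adjusted p was under 0.05 and grey where it was not. Hmox1 at 0.57 is the only red point right of 0, Txnrd1 and Cat at -0.22 and -0.30 are red on the left, and the interval of Srxn1 is the widest.

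Transcription factors that act on the 10 genes were read from the lists. Nfe2l2, which encodes NRF2, measured 3018 ± 184 against 3149 ± 145, and Keap1 measured 3416 ± 139 against 3248 ± 167, and neither passed (limma adjusted p = 0.384 and 0.269). Of the 13 genes for NRF2 and its regulators 1 was called higher and 4 lower. That was 38.5% called, beside 36.1% of all tested genes called in either direction, 16.8% higher and 19.4% lower. Bach1 encodes a haem-sensing repressor that competes with NRF2 at Hmox1 and related genes. It fell from 2863 ± 211 to 2282 ± 251 (log2 difference -0.33, limma adjusted p = 0.00734), with overlapping groups (1919 to 2622 against 2523 to 3067). Bach2, a lymphoid relative, fell from 277 ± 93.5 to 146 ± 52.4 (log2 difference -0.92, limma adjusted p = 0.0129). Rbx1, a subunit of the ligase through which KEAP1 acts, rose by 0.49 (limma adjusted p = 0.00127), and Btrc, a receptor for another route of NRF2 turnover, fell by 0.37 (limma adjusted p = 0.0167).

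Other NRF2 target genes showed no common direction. Of 18 tested, 4 were called higher and 2 lower (33.3% called, beside 36.1% of all tested genes), with a median log2 difference of -0.01. G6pdx, the entry enzyme of the pentose phosphate pathway and a source of NADPH, fell from 2348 ± 201 to 1795 ± 328 (log2 difference -0.40, limma adjusted p = 0.0177), and without control sample 2 its difference was -0.35 and did not pass (limma adjusted p = 0.0523). Taldo1, of the same pathway, rose from 6336 ± 137 to 7785 ± 533 (log2 difference 0.29 by limma, adjusted p = 0.00159). Gstp1, a glutathione transferase, rose by 0.23 (limma adjusted p = 0.00387), and Abcc4, a drug and nucleotide exporter, fell by 0.46 (limma adjusted p = 0.00253).

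FOXO factors, coactivators and target genes were called lower for 6 of 20 and higher for 1, with a median log2 difference of -0.09. That was 35% called, beside 36.1% of all tested genes called in either direction, 19.4% lower and 16.8% higher. Foxo1 and Foxo3 themselves measured 2910 ± 358 against 2755 ± 161 and 3050 ± 283 against 3401 ± 209, and neither passed (limma adjusted p = 0.511 and 0.0844). Ppargc1a, a coactivator of mitochondrial and antioxidant genes, was under the filter, at means of 9.65 and 7.90. Il7r and Irs2 fell by 0.95 and 0.82, and Ccng2 by 0.46 (limma adjusted p = 0.00102, 5.95e-04 and 0.00185). Gadd45a rose by 0.41 (limma adjusted p = 0.0371), a call held in 4 of the 10 fits that omitted a sample. NF-kB can also drive Sod2, and of 12 genes for its subunits and targets 7 were called lower and 0 higher. This was 58.3% called, beside 36.1% of all tested genes called in either direction and 19.4% called lower. Nfkb1 measured 4964 ± 177 against 6112 ± 204 (log2 difference -0.30, limma adjusted p = 6.21e-04).

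Superoxide can come from the phagocyte NADPH oxidase, and 4 of its 6 genes rose while Rac2 fell by 0.26 (limma adjusted p = 0.00405). Its share called was 83.3%, beside 36.1% of all tested genes called in either direction and 16.8% called higher. Cybb, the catalytic subunit, rose from 338 ± 14.2 to 1148 ± 484 (log2 difference 1.68 by limma, adjusted p = 2.34e-04), and Ncf1, a cytosolic subunit, rose by 1.76 (limma adjusted p = 6.88e-04). These genes are expressed mainly in phagocytes, and the neutrophil and macrophage sums given above moved with them, whose part was not tested.

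**Figure D4:**
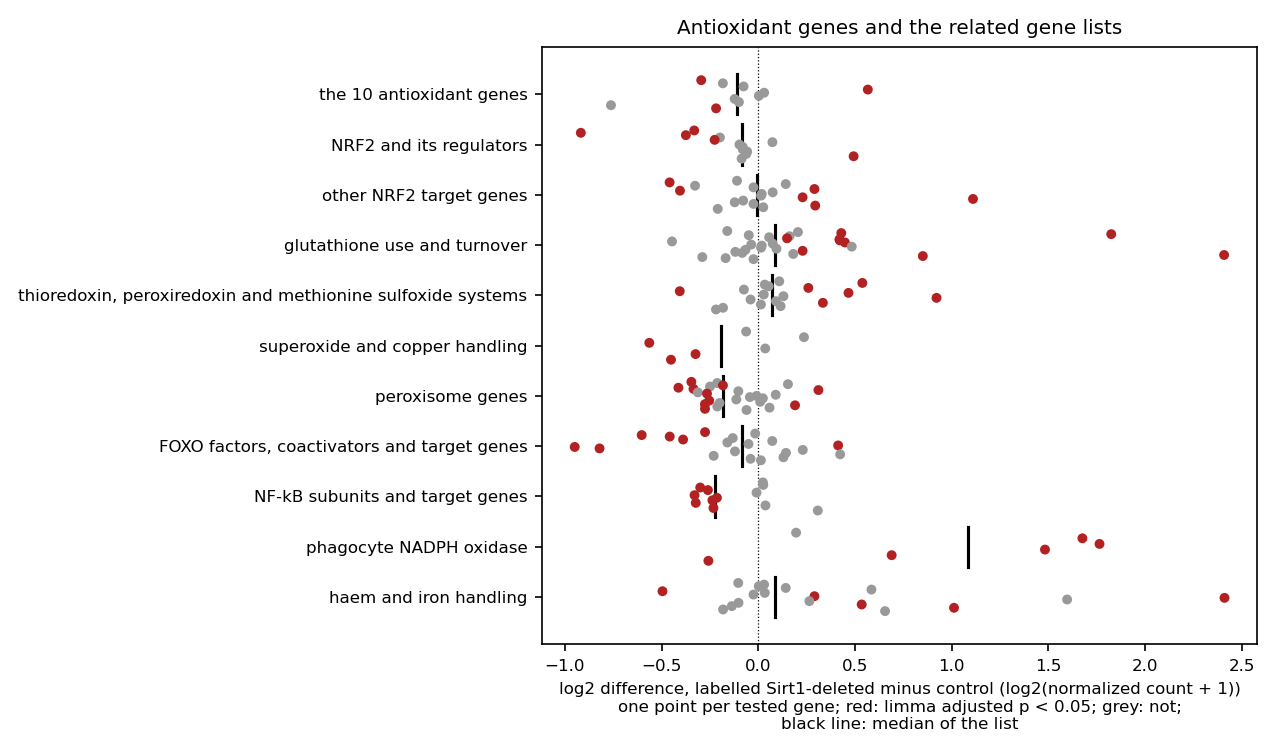
Log2 difference (horizontal axis, labelled Sirt1-deleted minus control) of every tested gene in the 10 antioxidant genes and the 10 related lists (rows), in red where the limma adjusted p was under 0.05, with the list median as a black line. Medians lie between -0.22 for NF-kB genes and 0.09 for haem and iron genes, except for the phagocyte NADPH oxidase at 1.09.

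Levels between genes were compared per kilobase of the longest principal GENCODE M21 transcript. In controls the order of mean normalized counts per kilobase was Sod1 (15013), Prdx1 (6166), Txnrd1 (1895), Cat (1664), Gclc (806), Sod2 (607), Gclm (289), Hmox1 (247), Nqo1 (49.96) and Srxn1 (14.1). Sample values of neighbours in this order overlapped only for Gclm and Hmox1. In the labelled Sirt1-deleted group Hmox1 (365) stood above Gclm (275), again with overlapping samples, and the pairs Txnrd1 and Cat and Gclc and Sod2 overlapped as well. Transcript length is assumed from the annotation, so genes with several transcripts have an uncertain place.

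Within the labelled Sirt1-deleted group, samples 10 and 11 held the highest values for 7 of the 10 genes, beside 23.7% of all tested genes. The exceptions were Hmox1 and Sod1, highest in samples 8 and 11, and Sod2, highest in 11 and 12. The lowest value was in sample 7, 8 or 12 for all 10, beside 58.8% of all tested genes. For the 7 genes this follows from the count above, so it adds only Hmox1, Sod1 and Sod2. The split of the samples was chosen after these values had been seen, so the shares are no test of it. Without samples 10 and 11, an alternative chosen after seeing the data, 6 of the 10 genes were called. Hmox1 was higher, and Gclc, Txnrd1, Srxn1, Sod1 and Cat were lower. Calls rose over all tested genes as well, to 6926 of 15276 from 5518 with all 10 samples. Without sample 11 alone the same 6 passed. Neutrophil and T lineage marker sums were lowest in the group in samples 10 and 11, at 29087 and 39894 against 44952 to 100260 for neutrophils and at 262241 and 268379 against 286922 to 288802 for T lineage, whereas the macrophage sum was lowest in sample 10 but higher in 11 than in 12. The erythroid sum was highest in sample 11 (149700) and lowest in 8 (30284), with 123164 in 7, 86174 in 10 and 47703 in 12. The part of these cell types in the order of samples was not tested.

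Ratios within a sample do not depend on how samples were scaled, and 5 pairs, the Gclc to Gclm and Sod2 to Sod1 ratios included, were chosen after the values had been seen. Cat counts per Prdx1 count averaged 0.250 ± 0.0159 with tamoxifen and 0.308 ± 0.0175 without, with no overlap (0.231 to 0.273 against 0.292 to 0.334). Txnrd1 per Prdx1 was 0.406 ± 0.0186 and 0.474 ± 0.0365, also without overlap. Hmox1 per Cat was 0.163 ± 0.0207 and 0.0889 ± 0.00466 (SD, n = 5 each). These ratios show unequal change among the genes and were not tested.

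Genes whose pattern over the 10 samples was most like that of Hmox1, the antioxidant gene with the highest difference, were Eif2ak2, Alkbh7 and Adar. Their mean-centred log2 values differed from those of Hmox1 by a root mean square of 0.106, 0.108 and 0.112, where Hmox1 itself deviated from its mean by 0.303. Eif2ak2 encodes a kinase activated by double-stranded RNA, and it rose by 0.44 on the log2 scale. Adar encodes an RNA-editing deaminase and rose by 0.50, and Alkbh7, which encodes a mitochondrial protein of the AlkB family, by 0.51 (limma adjusted p = 6.21e-04 for Eif2ak2, 4.13e-04 for Adar and 0.00229 for Alkbh7). Neighbours were picked out of 10744 genes for likeness in these same samples. For Hmox1 their rises and low p-values thus follow from the choice and are no separate result. For Srxn1, which had the lowest difference, the nearest were Arrb1, Hemgn and Abcg4, at 0.376, 0.381 and 0.403, where Srxn1 deviated from its own mean by 0.721. Likeness to so variable a gene was loose, and of these 3 only Arrb1 was called (limma adjusted p = 0.0357), a call that held in 5 of the 10 fits that left out a sample.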

How the data were processed

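RNA from suspensions of leukemic spleen, after lysis of red cells, was sequenced as strand-specific libraries, per the labels' protocols. The deposited values are normalized counts of each gene, scaled by the authors with DESeq, as the table's name says, so they are a signal unit rather than raw counts. Named by the submitters in their processing notes, without roles, are kallisto 0.44.0, DESeq and mm10. Annotation, gene filters and how transcripts were summed to genes are not given in the sources used here. All 10 samples had a column and 0 columns lay outside them. Low values were searched for whole reads: 68.3% to 74.3% of values up to 8.5 reads lay within 0.1 of a multiple of the most frequent low value, so reads were not recovered and no count model was run. Depth is therefore approximate and no counting interval was derived.

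Values were analysed as log2(value + 1) for genes with a mean of at least 10, with limma 3.58.1 in R 4.3.3 (group as the only term, trend in the prior variance) and Benjamini-Hochberg adjustment over all tested genes at 0.05. A fold on this scale understates the change of low genes. Permutation tests were exact over 252 assignments. The code was checked on simulated counts. Samples were grouped by the genotype label and numbered by title. The antioxidant genes, the other lists and the naming rule were chosen with earlier results of these data known. Named are the 10 genes, Sirt1, genes acting directly on them, up to 3 rises and 3 falls per list with a mean of at least 100, and the 3 genes most alike in pattern to the antioxidant genes of highest and lowest difference. A few further genes of the lists (Blvra, Blvrb, Cd163, Fth1, Lyz2) were named after their values were seen. Some genes that the rule names are not reported here. Transcript copies were sought with blastn (at least 95% identity over 200 bases of GENCODE M21). Alternatives were pseudocounts of 0.1 and 5, no filter or a minimum mean of 50, rescaling to the upper quartile, quantile normalization, array weights, limma with no trend, an exact rank-sum test, a threshold of 0.01, and leaving out each sample.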

Additional observations from a re-analysis of the deposited data

Results flagged for a closer look

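Each of 68 genes named by rule was searched for a sample far from the other 4 of its group (gap to the nearest sample over the whole range above 0.71), and 8 of 136 such groups held one. Chance flags about 1 in 20 groups, here 6.8. Labelled Sirt1-deleted sample 11 stood apart for Srxn1, at 51.9 normalized counts against 11.9 to 22.0 in the other 4. Sample 12 of that group was high for Rbx1, at 5472 against 4064 to 4265, and low for Abcc4, at 959 against 1286 to 1356. Sample 7 was high for Bach2, at 236 against 110 to 143, sample 8 was high for Cybb, at 1987 against 774 to 1115, and sample 10 was low for Eif2ak2, at 1830 against 2060 to 2083. Control sample 4 was high for Msrb1, at 1231 against 1039 to 1048, and for Prdx5, at 2356 against 1879 to 1990.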

How the results depend on the processing

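No paired analysis was possible because sample numbers in the titles differ between the groups. Hmox1 and Cat kept direction and call under all 10 processing alternatives (0.56 to 0.63 and -0.30 to -0.24) and in all 10 fits without 1 sample (0.51 to 0.61 and -0.33 to -0.24). Txnrd1 kept its direction but lost its call under upper-quartile rescaling (-0.16), without the trend, with the rank-sum test (both -0.22) and at a threshold of 0.01. The number of antioxidant genes called was 2 to 4 under these alternatives and 2 to 6 without 1 sample. The number called lower was 1 under upper-quartile rescaling, limma without trend, the rank-sum test and the threshold of 0.01, and 1 to 5 without 1 sample. Without both labelled Sirt1-deleted samples 10 and 11, an alternative chosen after seeing the data, 6 were called and 5 of them were lower, with 6926 of all genes called (3201 higher, 3725 lower). With all 10 samples 5518 of all genes were called (2562 higher, 2956 lower). Of all genes, 3659 (1691 higher, 1968 lower) were called by the rank-sum test and 2850 (1328 higher, 1522 lower) at 0.01, and 4201 to 6260 without 1 sample (1971 to 2927 higher, 2230 to 3333 lower). Of the 44 other genes named by rule that were called, 28 kept the call under every alternative and without each sample, and 0 changed sign. Prdx1 and Nqo1, near 0, changed sign in 7 settings each without a call.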
